A study of Mus musculus with 8 samples.

Results

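Expression of 9 genes for dental epithelial transcription factors outside the Dlx and Msx homeobox families was compared between secretory and maturation stage enamel organs. The genes were Sp6, Satb1, Runx1, Runx2, Cbfb, Tbx1, Bcl11b, Trps1 and Trp63, chosen by name from the 54532 genes of the count table. All 9 were among the 16440 genes with enough counts to be tested. Enamel organs of first molars came from untreated C57BL/6 mice of wt genotype at 2 ages, P5 (secretion of enamel matrix by the ameloblasts) and P12 (hardening of the enamel). Each library held a pool of enamel organs from 5 pups, with 4 libraries at each age, numbered 1, 3, 4 and 5 at P5 and 1 to 4 at P12 in the sample labels. The p-values therefore measure the spread between pools. Total counts per library ranged from 16574548 to 20262601 at P5, and those at P12 from 17588152 to 22013456. The labels describe epithelially derived cells, obtained by removing the pulp from dissected molars, and no cell type was sorted. The 4 secretory stage enamel genes Amelx, Ambn, Enam and Mmp20 summed to 261000 to 294000 CPM at P5 and 12500 to 32700 CPM at P12. CPM are counts scaled to a common effective library size, which is the total of the tested genes times a TMM factor. The factor was 0.871 to 0.888 at P5 and 1.08 to 1.18 at P12. Sums in CPM are therefore higher at P5, and lower at P12, than with the total alone. Markers of fibroblastic mesenchyme summed to between 39300 and 56100 CPM and those of odontoblasts and osteoblasts to between 8570 and 11700 CPM over the 8 libraries, and these genes mark tissues next to the epithelium. The mesenchymal sum hides opposite changes, since 3 of the 7 markers rose at P12, Postn with a log2 fold change of 3.95, and 3 fell, Pdgfra with -0.99. Over all tested genes, 28.8% were higher at P12 and 28.4% lower at an edgeR adjusted p under 0.05. Of markers of other tissues, 4 of 5 for leukocytes, 4 of 4 for endothelium and 3 of 4 for cartilage were higher at P12. So were 5 of 5 for oral mucosa, and 4 of 4 for skeletal muscle were lower. Their part in the changes of the transcription factor genes was not tested.

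The enamel organ is the epithelium that forms enamel, and its ameloblasts change from secreting matrix proteins to transporting ions. RUNX proteins bind DNA through the runt domain, and the partner encoded by Cbfb, which does not bind DNA by itself, raises their affinity for it. Sp6 is a zinc finger protein of the Sp family, whose members bind GC boxes, and mice without it form teeth with little or no enamel. Satb1 and Bcl11b are nuclear regulators best known from T cells, and p63, the product of Trp63, maintains stratified epithelia. Tbx1 is a T-box factor of the pharyngeal region and the teeth, and Trps1 is a GATA-type repressor of hair, cartilage and tooth development.

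Promoter sequences are shown for the Runx genes because Runx1 and Runx2 are members of 1 family with a known binding motif. Both had their lowest normalized P5 count in replicate 5 and their highest P12 count in replicate 4, as described further on. The same held for Satb1 and Cbfb, whose windows had no match to this motif. RefSeq promoter windows of GRCm38.p6, from 250 bases before a transcript start to 50 after it, were present for 6 of the 9 genes, in 12 windows, and none for Sp6, Trps1 and Trp63. The RUNX core TGTGGT was searched on both strands. It occurred in 2 of the 12 windows, the distal Runx1 window at chr16:92826025-92826324 and the Runx2 window at chr17:44814578-44814877, both read from the minus strand. Of all 32851 windows of this length in the table, 16.8% held at least 1 match, 1.81% at least 2 and 0.183% at least 3. Runx1 had 2 matches and Runx2 had 3. In both genes 2 of the matches lay side by side just after the start, in the same orientation and with 2 bases between them, and a window of the third family gene, Runx3, held the same pair before its start. Capitals in the following 30 bases mark the matches, which read as the reverse complement of the motif, at chr16:92826025-92826054 for Runx1 and chr17:44814583-44814612 for Runx2 on the minus strand, and at chr4:135120503-135120532 for Runx3 on the plus strand.
Runx1: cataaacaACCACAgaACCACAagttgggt
Runx2: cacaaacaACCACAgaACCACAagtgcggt
Runx3: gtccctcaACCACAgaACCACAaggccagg

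The longest stretch shared by the Runx1 and Runx2 windows was the 22 bases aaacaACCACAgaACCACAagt, at positions 24 to 45 after the start in Runx1 and 19 to 40 in Runx2. No window of another gene among the 32851 held these 22 bases. A pair of matches on 1 strand with this spacing occurred in 7 windows, or 0.0213%, which belonged to Runx1, Runx2, Runx3, Olfr24, Gm12236, Gm15462 and Gm16225. The spacing was searched after the matches had been seen. The 250 bases before the start hold no match in Runx1 and 1 in Runx2, where it begins 80 bases before the start. They are printed for comparison, at chr16:92826075-92826324 for Runx1 and chr17:44814628-44814877 for Runx2, with the match in capitals.
Runx1 before the start: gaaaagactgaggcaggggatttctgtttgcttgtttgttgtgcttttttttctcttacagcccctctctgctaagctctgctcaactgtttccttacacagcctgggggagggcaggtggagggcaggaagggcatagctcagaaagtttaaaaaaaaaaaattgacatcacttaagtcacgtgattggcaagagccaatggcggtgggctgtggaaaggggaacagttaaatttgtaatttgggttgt
Runx2 before the start: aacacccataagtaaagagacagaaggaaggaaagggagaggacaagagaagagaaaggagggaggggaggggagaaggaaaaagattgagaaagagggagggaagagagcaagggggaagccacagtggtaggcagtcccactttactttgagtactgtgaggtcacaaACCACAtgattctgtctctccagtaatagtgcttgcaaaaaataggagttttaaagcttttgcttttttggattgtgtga

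A GC box, GGGCGG on either strand, was found in 3 of the 12 windows, 1 each of Satb1, Cbfb and Tbx1, and in 35.7% of all windows. These matches describe the letters of the windows and no binding was measured.

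Between P5 and P12, Satb1 and Sp6 had the largest falls among the 9 genes. Cbfb, Tbx1 and Trps1 fell by smaller amounts, Runx2 rose, and Runx1, Trp63 and Bcl11b did not pass the test. Thus 1 of the 9 genes was higher at P12 at an adjusted p under 0.05 (edgeR's quasi-likelihood test), where 28.8% of all tested genes were higher, and 5 of 9 were lower, where 28.4% of all tested genes were lower. The median log2 fold change of the 9 genes was -0.35, against 0.01 over all tested genes and -0.02 over the 1041 tested genes to which the table gives a transcription factor family. Normalized counts of the ages did not overlap for 4 of the 9 genes, Satb1, Sp6, Cbfb and Tbx1, against 52.5% of all tested genes. Scaling by the total count moved the median over all tested genes from 0.01 to 0.38, with 8885 of them higher and 2330 lower, and left 1 of the 9 genes higher and 3 lower. Relative to that median the values were -2.50 for Satb1, -1.64 for Sp6, -0.63 for Cbfb, -0.50 for Tbx1, -0.35 for Trps1 and 0.71 for Runx2.

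**Figure D1:**
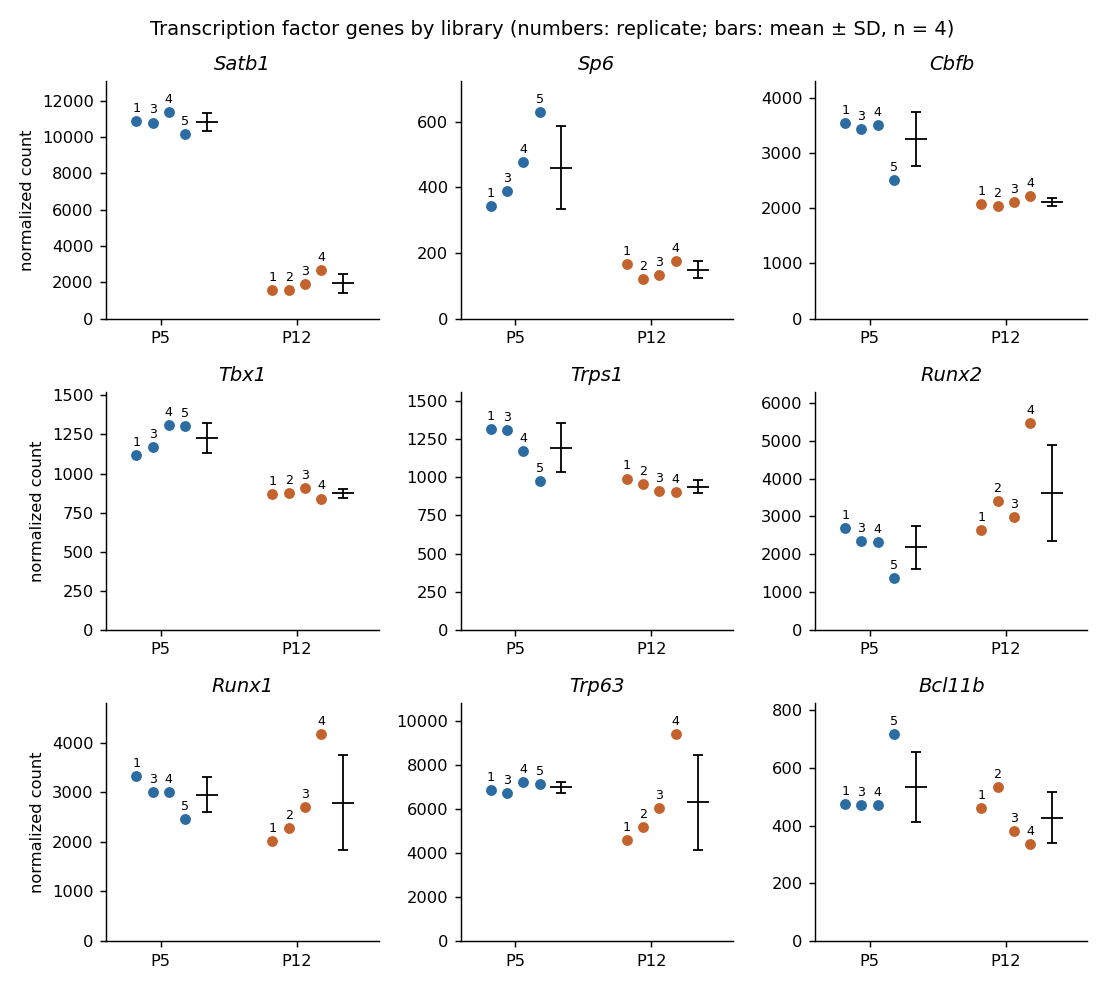
Normalized count (y axis, from 0) of each of the 9 genes in the 4 P5 and 4 P12 libraries (x axis), with replicate numbers beside the points and bars for the mean ± SD. Satb1, Sp6, Cbfb and Tbx1 have no overlap between the ages, and P12 replicate 4 is the highest library for Runx1, Runx2 and Trp63.

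Satb1 encodes a chromatin organizer that binds AT-rich DNA (ENSMUSG00000023927, GRCm38 chr17:51736187-51833290, minus strand). Its normalized counts, in which each library is brought to the mean effective library size, were 10903, 10795, 11372 and 10167 in P5 replicates 1, 3, 4 and 5 and 1558, 1589, 1926 and 2686 in P12 replicates 1 to 4. Every P5 library was far above every P12 library, and P12 replicate 4 was the highest of its age. The mean fell 5.58-fold, from 10809 ± 496 to 1940 ± 525 (SD, n = 4), or by 2.48 on the log2 scale (SE 0.16, edgeR adjusted p = 2.1e-07). Among the 1041 tested transcription factor genes this was the fall of rank 16, and the level per kilobase moved from rank 46 to rank 358. In these bulk samples, fewer cells of a type and less RNA per cell cannot be told apart.

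The genes whose pattern over the 8 libraries was most like that of Satb1, of 11344 compared, were Mmp20, the secretory stage enamel protease, at a root mean square distance of 0.07 on the log2 scale, and Pip5k1b, a phosphoinositide kinase gene, at 0.12. The spread of Satb1 itself about its mean was 1.28. The count of Satb1 divided by that of Mmp20 ranged from 0.415 to 0.430 at P5, and at P12 from 0.415 to 0.485. This ratio was formed after the likeness had been seen. The 7 T cell markers summed to 2.16 to 3.12 CPM at P5 and 2.54 to 5.48 CPM at P12. No library had more than 9 reads of Cd3d, 4 of Cd3e, 7 of Cd3g or 1 of Cd8a. The highest counts of Cd2, Lck and Cd4 were 19, 18 and 97. Only 2 of the 7 had enough counts to be tested, Lck and Cd4. Lck did not pass (log2 fold change -0.72, edgeR adjusted p = 0.102). Cd4 was higher at P12 (log2 fold change 1.21, adjusted p = 0.00786). The Cd4 call was lost over the 6 libraries with shared replicate numbers, both with the replicate block (0.94, adjusted p = 0.0732) and without it (1.03, adjusted p = 0.0582).

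Sp6 (ENSMUSG00000038560, GRCm38 chr11:97013394-97024734, plus strand) had normalized counts of 343, 389, 477 and 629 at P5 against 166, 120, 134 and 174 at P12. The ages did not overlap, and P5 replicate 5 was the highest library. The mean fell 3.10-fold, from 460 ± 126 to 149 ± 25.7 (SD, n = 4; log2 fold change -1.63, SE 0.19, adjusted p = 2.5e-05). Of the 3841 exonic bases of Sp6, 86.7% are also exonic in the antisense gene Gm11532, which leaves 512 bases of its own. Gm11532 had 119 to 196 reads at P5 and 30 to 51 at P12 and fell too (log2 fold change -2.27, SE 0.18, adjusted p = 1.1e-06). How strand was used in counting is not given in the sources used here, so the reads of Sp6 and Gm11532 cannot be told apart. Of its tested relatives, the osteoblast factor Sp7 rose (log2 fold change 0.43, adjusted p = 6.1e-04), the ubiquitous Sp1 rose (0.28, adjusted p = 0.00234), and Sp3 had a value of -0.13 that did not pass. The patterns most like that of Sp6 were those of Lama1, a laminin chain gene, and Nyap1, both at a distance of 0.16.

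Of the 3 genes for RUNX proteins and their partner among the 9, Runx2 rose, Runx1 did not pass the test and Cbfb fell. Runx2 is the factor required for osteoblasts and is also expressed in ameloblasts (ENSMUSG00000039153, GRCm38 chr17:44495987-44814797, minus strand). It had 2684, 2360, 2313 and 1373 normalized counts at P5 and 2633, 3398, 2986 and 5467 at P12. The ages overlapped, because P5 replicate 1 was above P12 replicate 1, while P5 replicate 5 was the lowest and P12 replicate 4 the highest library. The mean rose 1.66-fold, from 2183 ± 565 to 3621 ± 1270 (SD, n = 4; log2 fold change 0.73, SE 0.24, adjusted p = 0.0211). Without P5 replicate 5 the log2 fold change was 0.56 and the adjusted p was 0.0529, and without P12 replicate 4 they were 0.46 and 0.0355. Of the 6 odontoblast and osteoblast markers, Ibsp and Sp7 rose and Dmp1 fell (adjusted p = 0.0488, and 0.149 without P5 replicate 5), with a sum of 8570 to 11300 CPM at P5 and 9970 to 11700 CPM at P12, and their part in the Runx2 result was not tested. Pacsin1 and Nav3 had the patterns most like that of Runx2, at distances of 0.11 and 0.15 where its spread was 0.53.

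Runx1 is the family member best known from blood formation and hair follicles (ENSMUSG00000022952, GRCm38 chr16:92601466-92826149, minus strand). It had 3326, 3013, 3015 and 2470 normalized counts at P5 and 2026, 2270, 2710 and 4172 at P12. The P12 libraries lay on both sides of the P5 libraries. The means were 2956 ± 356 and 2794 ± 961, and the log2 fold change of -0.08 had a 95% interval from -0.46 to 0.29 (adjusted p = 0.736). The value turned on 1 library, since without P12 replicate 4 it was -0.35 with an adjusted p of 0.0142. The patterns most like that of Runx1 were those of Slc4a4, the sodium bicarbonate cotransporter, and Atp6v0a1, a proton pump subunit, each at a distance of 0.07, where the spread of Runx1 was 0.31. Slc4a4 had 8585, 8125, 8353 and 7521 normalized counts at P5 and 5316, 6065, 7307 and 11447 at P12, and like Runx1 it was highest in P12 replicate 4.

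Runx3, the remaining gene of the family, rose at P12, from 167 ± 28.2 to 372 ± 70.8 normalized counts (log2 fold change 1.16, SE 0.16, adjusted p = 7.5e-05). The 5 leukocyte markers, of which 4 rose, summed to 76.7 to 110 CPM at P5 and 115 to 153 CPM at P12, and their part in the Runx3 result was not tested. Cbfb, the shared partner (ENSMUSG00000031885, GRCm38 chr8:105170674-105217989, plus strand), had 3552, 3434, 3512 and 2522 normalized counts at P5 and 2078, 2045, 2112 and 2219 at P12. All 4 P12 libraries were below the lowest P5 library, replicate 5. The mean fell from 3255 ± 491 to 2113 ± 75.3 (SD, n = 4; log2 fold change -0.62, SE 0.10, adjusted p = 2.9e-04). Usp6nl and Zbtb5 were most like Cbfb, at 0.07 and 0.08 where its spread was 0.34.

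Ratios within a library do not depend on its scaling. The log2 ratio of the summed Runx1, Runx2 and Runx3 counts to the Cbfb count was 0.81, 0.69, 0.64 and 0.66 at P5 against 1.3, 1.55, 1.53 and 2.16 at P12. Every P12 library was above every P5 library, with means of 0.70 ± 0.07 and 1.64 ± 0.37, which is 1.91-fold more Runx reads per Cbfb read (two-sided exact permutation test, p = 0.0286, the smallest that 4 libraries against 4 allow, and 0.0286 after Benjamini-Hochberg adjustment over 3 ratios). The log2 ratio of Runx2 to Runx1 was -0.31, -0.35, -0.38 and -0.85 at P5 against 0.38, 0.58, 0.14 and 0.39 at P12. Runx1 had the higher count in all P5 libraries and Runx2 in all P12 libraries. The ratio rose 1.80-fold, by 0.84 on the log2 scale, with means of -0.47 ± 0.25 and 0.37 ± 0.18 (exact permutation p = 0.0286, adjusted 0.0286). Per kilobase of gene length Runx2 was 0.756 to 1.10 times Runx1 at P5 and 1.5 to 2.04 times at P12. By the longest coding transcript, the mean levels per kilobase at P5 were 338 for Runx2 and 504 for Runx1, and those at P12 were 560 and 477, so the order at P5 depends on the length used. Leaving out any 1 library kept this log2 difference between 0.72 and 0.92.

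**Figure D2:**
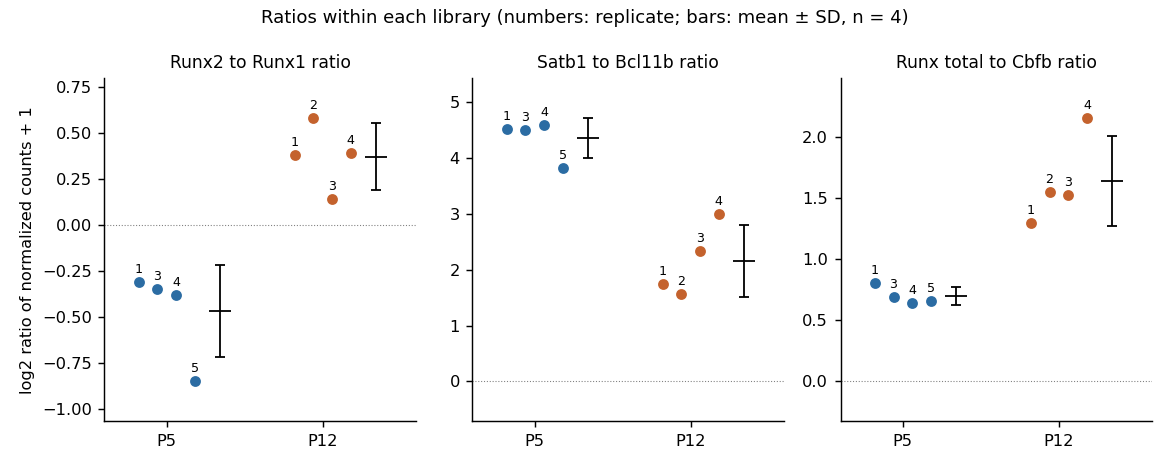
Log2 ratio of normalized counts plus 1 (y axis) within each of the 4 P5 and 4 P12 libraries (x axis) for Runx2 to Runx1, Satb1 to Bcl11b and summed Runx genes to Cbfb, with replicate numbers and bars for the mean ± SD. The ages do not overlap in any of the 3 panels, and the Runx2 to Runx1 ratio crosses 0 between -0.31 at P5 and 0.14 at P12.

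Of the 7 co-repressor genes of the TLE and ETO families, listed here as RUNX co-repressors, 2 rose and 2 fell. Their median log2 fold change was -0.23. Each count is 28.6%, close to the 28.8% higher and 28.4% lower of all tested genes. Tle4 fell from 1467 ± 85.6 to 273 ± 78.0 normalized counts (log2 fold change -2.43, SE 0.16, adjusted p = 2.4e-07), with no overlap between the ages. Cbfa2t2 fell as well (-0.53, adjusted p = 5.4e-05), and it did not pass with total count scaling (-0.15, adjusted p = 0.074). Tle1 (0.63, adjusted p = 0.00131) and Cbfa2t3 (0.80, adjusted p = 0.00195) rose. From the RUNX, Sp, T-box, BCL11 and p53 families, 9 relatives of the 9 transcription factor genes were tested. Of these, 5 rose and 2 fell (55.6% and 22.2%), with a median of 0.28. The shares over all tested genes were 28.8% and 28.4%.

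**Figure D3:**
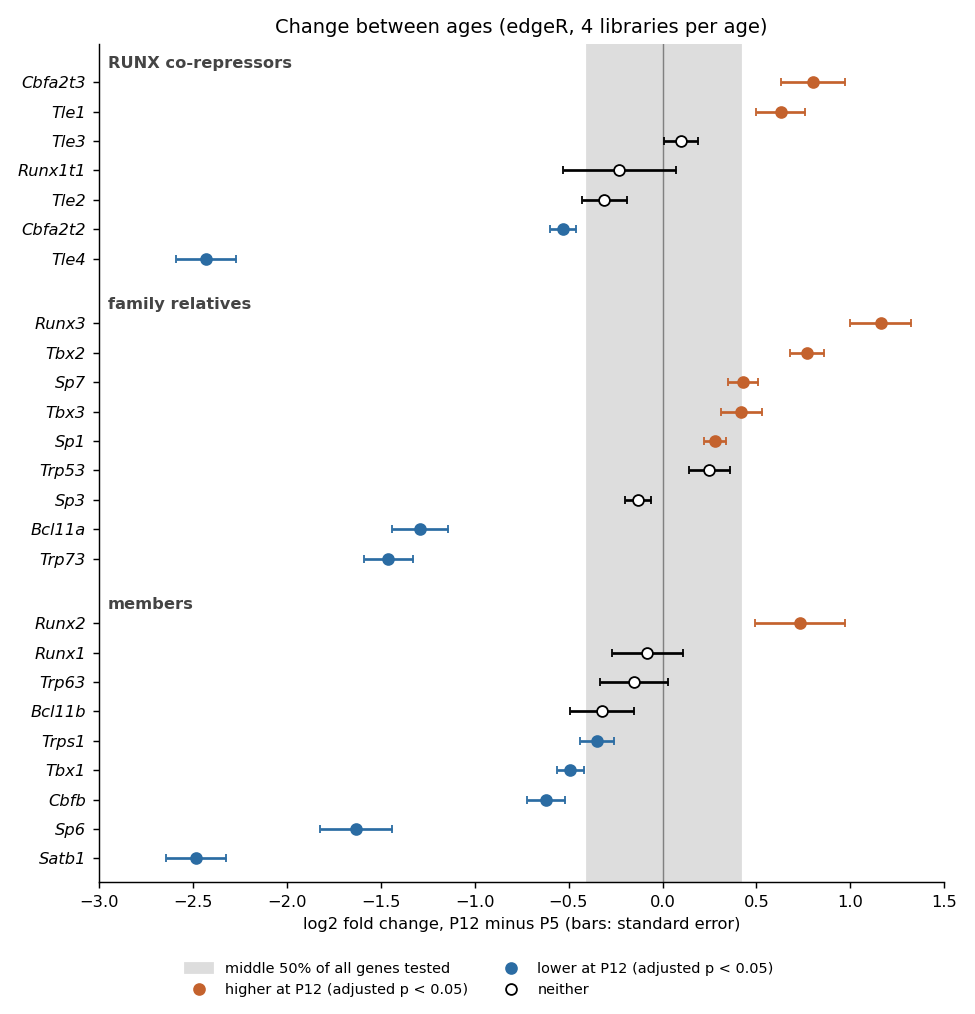
Log2 fold change, P12 minus P5 (x axis, bars for the standard error), of the 9 genes, their family relatives and the RUNX co-repressors, with filled points for an adjusted p under 0.05 and a grey band for the middle 50% of all tested genes, from -0.40 to 0.42. Satb1 at -2.48, Tle4 at -2.43 and Sp6 at -1.63 lie farthest to the left, and Runx3 at 1.16 farthest to the right.

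Tbx1 (ENSMUSG00000009097, GRCm38 chr16:18580979-18590671, minus strand) had 1120, 1167, 1309 and 1306 normalized counts at P5 and 870, 873, 908 and 840 at P12. The libraries of each age lay close together and the ages did not overlap. The mean fell from 1225 ± 96.7 to 873 ± 27.8 (log2 fold change -0.49, SE 0.07, adjusted p = 1.0e-04), and under total count scaling the call was lost (-0.12, adjusted p = 0.186). Its relatives Tbx2 (0.77, adjusted p = 2.9e-05) and Tbx3 (0.42, adjusted p = 0.00578) rose. Chchd7 and Ecd had the patterns most like that of Tbx1, both at a distance of 0.04 where its spread was 0.25.

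Trps1 (ENSMUSG00000038679, GRCm38 chr15:50654752-50890463, minus strand) had 1318, 1312, 1171 and 975 normalized counts at P5 and 992, 956, 907 and 901 at P12. The ages overlapped only because P5 replicate 5 was below P12 replicate 1. The mean fell from 1194 ± 161 to 939 ± 43.1 (log2 fold change -0.35, SE 0.09, adjusted p = 0.00789). Total count scaling turned the value to 0.03 (adjusted p = 0.801). Exosc4 and Dtna were most like it, at 0.05 and 0.06.

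Bcl11b (ENSMUSG00000048251, GRCm38 chr12:107910403-108003602, minus strand), a zinc finger repressor needed for ameloblast and T cell development, had 474, 472, 471 and 717 normalized counts at P5 and 461, 534, 381 and 335 at P12. Within P5, replicates 1, 3 and 4 were nearly equal and replicate 5 stood above them. The means of 533 ± 122 and 428 ± 87.9 gave a log2 fold change of -0.32 with a 95% interval from -0.65 to 0.01 (adjusted p = 0.131), and the value depended on single libraries. It was -0.44 (adjusted p = 0.0494) without P12 replicate 2, -0.15 (adjusted p = 0.415) without P5 replicate 5, and -0.04 (adjusted p = 0.768) without both P5 replicate 5 and P12 replicate 4. Its paralog Bcl11a fell from 1583 ± 411 to 648 ± 51.2 (-1.29, adjusted p = 2.4e-05). Dmp1, a matrix gene of odontoblasts and osteocytes, had the pattern most like that of Bcl11b, at a distance of 0.08 where its spread was 0.30, and Tep1 followed at 0.11. The log2 ratio of Satb1 to Bcl11b was 4.52, 4.51, 4.59 and 3.82 at P5 against 1.75, 1.57, 2.34 and 3.0 at P12. This was a fall of 4.59-fold without overlap (exact permutation p = 0.0286, adjusted 0.0286). All 3 ratios had the smallest p, so the adjustment left it unchanged. The ratio repeats the fall of Satb1 (log2 fold change -2.48) and is not a separate result.

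Trp63 (ENSMUSG00000022510, GRCm38 chr16:25683763-25892102, plus strand) had 6858, 6734, 7237 and 7153 normalized counts at P5 and 4593, 5195, 6051 and 9411 at P12. The P5 libraries were close together, 3 of the P12 libraries were below all of them, and P12 replicate 4 was above them. The means were 6995 ± 238 and 6313 ± 2151, with a log2 fold change of -0.15 and a 95% interval from -0.50 to 0.21 (adjusted p = 0.505), but without P12 replicate 4 it was -0.41 with an adjusted p of 9.3e-04. Counts per gene do not separate the isoforms of Trp63 or of Runx2. Trp73, its paralog, fell from 1582 ± 315 to 576 ± 43.5 (-1.46, adjusted p = 2.4e-06). Pdk3 and Mturn were most like Trp63, at 0.05 and 0.06. Of 13 basal epithelial genes linked to p63, 6 rose and 5 fell, with a median log2 fold change of 0.24. These counts are 46.2% and 38.5%, where 28.8% of all tested genes rose and 28.4% fell. The basal keratin genes Krt14 (2.22, adjusted p = 5.3e-08) and Krt5 (1.3, adjusted p = 5.6e-07) and the integrin gene Itga6 (1.87, adjusted p = 1.1e-08) rose. The Notch ligand gene Jag2 (-1.43, adjusted p = 3.4e-07) and the integrin gene Itga3 (-1.19, adjusted p = 1.8e-07) fell.

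Differences between libraries of 1 age were shared by several of the genes. Each library was set against the mean of the other 3 libraries of its age on the log2 scale. P12 replicate 4 was higher by 0.87 for Runx2, 0.85 for Runx1, 0.84 for Trp63, 0.67 for Satb1 and 0.32 for Sp6. Bcl11b went the other way, at -0.44, and Cbfb, Tbx1 and Trps1 differed by less than 0.1. The same difference was 1.59 for Amelx and -4.03 for the oral mucosa keratin gene Krt13. The 5 oral mucosa markers, all of which rose with age, summed to 23.3 to 45.7 CPM at P5 and to 1460, 1730, 1090 and 214 CPM in P12 replicates 1 to 4. The secretory stage enamel genes summed to 12500, 13900, 22800 and 32700 CPM in the same libraries. The 5 maturation stage genes Klk4, Amtn, Odam, Slc24a4 and Wdr72 were also highest in replicate 4, with sums of 18800, 23300, 24100 and 25400 CPM. The difference of P12 replicate 4 was 0.82 for Amtn, 0.73 for Slc24a4 and 0.04 for Odam. In P12 replicates 1 to 4 the count of Trp63 was 2.27, 2.29, 2.23 and 2.26 times that of Runx1, so the differences between these libraries were nearly the same for both genes. At P5 the ratio was between 2.06 and 2.90. This pair of genes was chosen after the values had been seen. For P5 replicate 5 the difference was -0.83 for Runx2, -0.47 for Cbfb, -0.38 for Trps1, -0.33 for Runx1, 0.65 for Sp6, 0.60 for Bcl11b and -2.48 for the maturation stage gene Slc24a4. Without both of these libraries the log2 fold change was -0.42 for Runx1 (adjusted p = 9.4e-04), -0.40 for Trp63 (0.00101) and 0.29 for Runx2 (0.00933). The part of stage, epithelial share or other tissue in these differences was not tested.

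**Figure D4:**
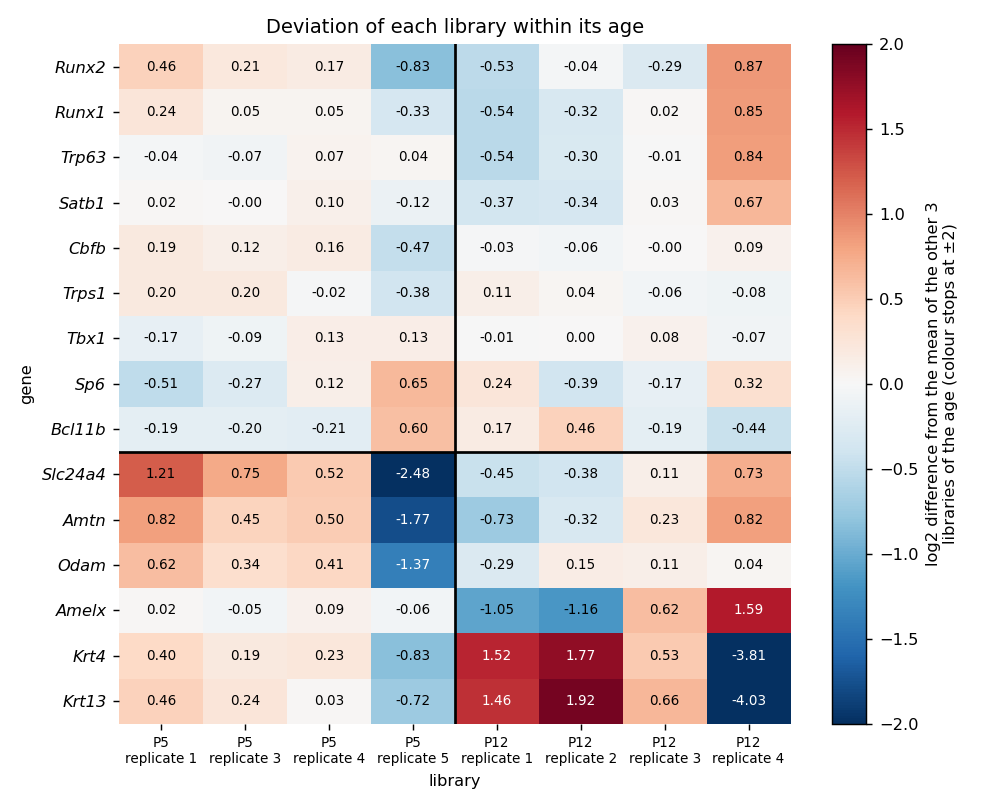
Log2 difference of each library (x axis) from the mean of the other 3 libraries of its age, for the 9 genes and, below the line, for 6 stage and oral mucosa genes (y axis), with the value in each cell and colours ending at ±2. P12 replicate 4 is high for Runx2 (0.87), Runx1 (0.85), Trp63 (0.84) and Amelx (1.59), and P5 replicate 5 is low for Runx2 (-0.83) and Slc24a4 (-2.48).

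Levels of different genes were compared per kilobase of the gene length in the table, as normalized counts per kilobase. At P5 the order was Cbfb (935 ± 141), Trp63 (834 ± 28.4), Satb1 (568 ± 26.1), Tbx1 (348 ± 27.5), Runx2 (247 ± 63.9), Runx1 (246 ± 29.6), Sp6 (120 ± 32.7), Trps1 (89.2 ± 12) and Bcl11b (65.8 ± 15.1). The ranges over libraries overlapped between Cbfb and Trp63, Runx2 and Runx1, Sp6 and Trps1, and Trps1 and Bcl11b. At P12 it was Trp63 (752 ± 256), Cbfb (607 ± 21.6), Runx2 (410 ± 144), Tbx1 (248 ± 7.89), Runx1 (232 ± 79.9), Satb1 (102 ± 27.6), Trps1 (70.2 ± 3.22), Bcl11b (52.8 ± 10.8) and Sp6 (38.7 ± 6.69). Here the ranges overlapped between Trp63 and Cbfb, Cbfb and Runx2, Tbx1 and Runx1, and Bcl11b and Sp6. Runx2 moved from rank 148 to rank 61 among the 1041 tested transcription factor genes, Sp6 from 316 to 646, and Trp63 stayed near the top, at 20 and 21. The level of Sp6 was divided by all its 3841 exonic bases, of which only 512 are not shared with Gm11532. How reads on the shared bases were counted is not known, so the place of Sp6 in these orders is uncertain. Divided by the longest coding transcript instead, a setting added after the data were seen, Satb1 had the highest level of the 9 genes at P5, at 1730.

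**Figure D5:**
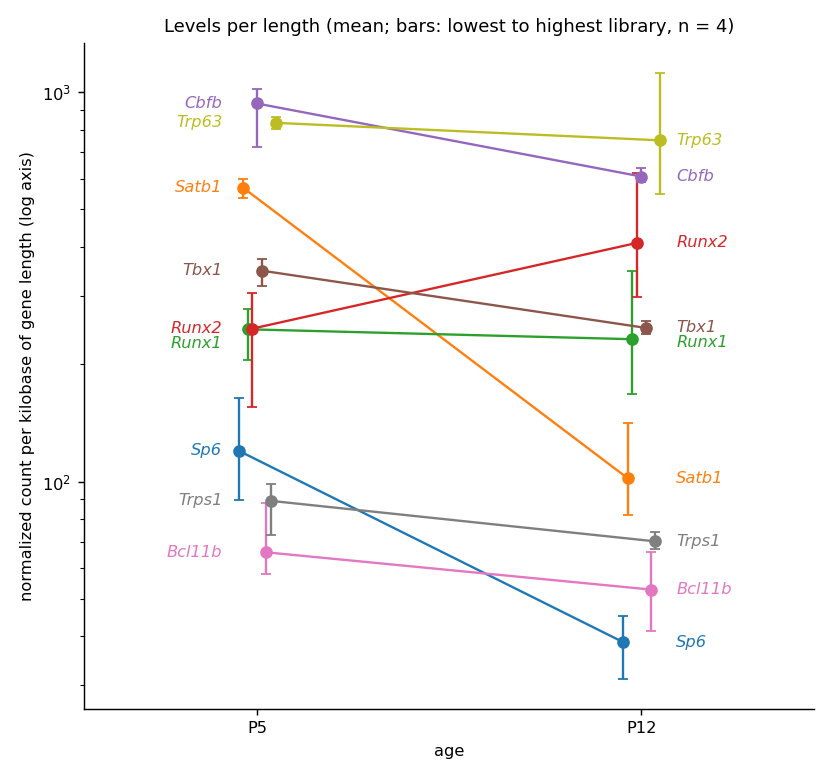
Normalized count per kilobase of gene length (y axis, log scale) of the 9 genes at P5 and P12 (x axis), with points for the mean of 4 libraries and bars from the lowest to the highest library. Satb1 drops from the third place (568) to the sixth (102) and Runx2 moves from the fifth (247) to the third (410), while bars of neighbouring genes often overlap.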

How the data were processed

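The data were bulk RNA-seq libraries of mouse first molar enamel organs, 4 pools of 5 pups at P5 and 4 at P12. The authors deposited whole-number read counts per gene without normalization. The submitters' processing notes name CASAVA and mm39, while the coordinates of the table are those of GRCm38 (GENCODE M21), for all 9 genes. The aligner, the counting program and its use of strand are not given in the sources used here. Counts were tested in R 4.3.3 by the quasi-likelihood test of edgeR 4.0.16 (TMM scaling, filterByExpr, no covariate), adjusted by Benjamini-Hochberg over 16440 genes and a threshold of 0.05. The 95% intervals of log2 fold changes use its SE with a normal approximation, and with 4 libraries per age they may be too narrow. Normalized counts are scaled to the mean effective library size, 19006280. Single values and ratios were tested by exact permutation over the 70 splits of 8 libraries, with a pseudocount of 1, and 0.0286 is the smallest p. Sp6, Satb1, Cbfb and Tbx1 reached it as single genes, but no single gene passed the threshold in this test after adjustment over the 9 genes. Likeness was the root mean square distance between log2 normalized counts, centred per gene, among tested genes with a mean of at least 100, and the nearest 2 genes are named. All 9 genes, any gene of the lists and these neighbours could be named, and the genes and lists were chosen with earlier results of these data known. A gene was left out of each of the lists of relatives and of other epithelial factors and is not reported here. No library was a duplicate, since chi-square divided by its degrees of freedom was 4.76 to 74.6 over the 12 within-age pairs. The authors' reads carried no molecular identifiers that the sources mention, and depth was between 16574548 and 22013456 counts. Alternatives were DESeq2 1.42.0, limma-voom (limma 3.58.1), other scalings and filters, left-out libraries, the replicate number as a block, stricter thresholds, another pseudocount and transcript lengths. The test scripts were tried on simulated data first. Promoters are RefSeq windows of GRCm38.p6, matched by symbol. scipy 1.17.1, numpy 2.4.6, pandas 2.3.3 and matplotlib 3.10.9 were used.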

Additional observations from a re-analysis of the deposited data

Results flagged for a closer look

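In 52 groups of 4 libraries, Dixon's criterion at 95% marked 5 values in which 1 library stood apart from the other 3, where chance marks about 1 in 20 groups, or 2.6 here. All 5 were in P5 replicate 5. The Cbfb normalized count was 2522, against 3434 to 3552 in the other P5 libraries. The Bcl11b normalized count was 717, against 471 to 474. The log2 ratio of Runx2 to Runx1 was -0.847, against -0.382 to -0.309, and that of Satb1 to Bcl11b was 3.82, against 4.51 to 4.59. The 4 endothelial markers summed to 151 CPM, against 120 to 125. These values share 1 library and 2 of them share the Bcl11b count, so they are not 5 separate events. Without this library Cbfb and the 3 ratios kept their direction between the ages, and Runx2 no longer passed the test.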

How the results depend on the processing

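Over 19 alternative fits, Satb1, Sp6 and Cbfb kept their direction and stayed past the threshold. Scaling by total count left 3 of the 9 genes lower, moved all genes to 8885 higher and 2330 lower, and turned the log2 fold change to 0.28 for Runx1, 0.06 for Bcl11b, 0.03 for Trps1 and 0.21 for Trp63. In the permutation test on that scale the differences were 0.24, 0.06, 0.03 and 0.17 for the same genes. There the ages overlapped for Cbfb (unadjusted exact permutation p = 0.143) and Tbx1 (0.229). They no longer overlapped for Runx2 (0.0286). The median of all genes moved with total count scaling, to 0.38, and the relative Sp3 turned from -0.13 to 0.24. Runx1 was also not below 0 without P12 replicate 1 (0.04) and without P12 replicate 2 (0.0), and it was -0.42 without P5 replicate 5 and P12 replicate 4. Leaving out 1 library gave 0 to 1 higher and 5 to 7 lower among the 9 genes, and 4309 to 4938 higher and 4364 to 5092 lower among all genes. The count of 0 higher came without P5 replicate 5, where Runx2 had an adjusted p of 0.0529 by edgeR. The same leave-outs kept the log2 differences of the ratios between 0.72 and 0.92 for Runx2 to Runx1, -2.48 and -2.0 for Satb1 to Bcl11b, and 0.76 and 1.05 for the Runx total to Cbfb. An adjusted p under 0.01 left 0 higher and 5 lower among the 9 genes, and 3713 higher and 3709 lower among all genes. A minimum change of 1 log2 unit left 0 higher and 2 lower, and 1864 higher and 1677 lower among all genes. Replicate numbers 1, 3 and 4 occur at both ages, and the deviations of same-numbered libraries correlated at 0.04, 0.01 and -0.04. Libraries with different numbers gave -0.07 to 0.06. These values gave no sign of pairing by number, but so few pairs cannot exclude it. With the replicate number as a block over these 6 libraries, 0 of the 9 genes were higher (Runx2 0.51, adjusted p = 0.0729) and 5 lower, with 3867 higher and 3843 lower among all genes. The same 6 libraries without the block gave 0 higher (Runx2 0.59, adjusted p = 0.0685), and 4076 and 4041. The block value of the ratio was 0.65 for Runx2 to Runx1, -2.18 for Satb1 to Bcl11b and 0.95 for the Runx total to Cbfb. With 4 pools per age, the width of the intervals for Runx1, Trp63 and Bcl11b leaves changes of the size seen for Trps1 possible.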

Other observations

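Other transcription factor genes of the epithelium, from a list of 16, gave 7 rises and 4 falls between P5 and P12, with a median log2 fold change of 0.32. For comparison, 28.8% of all tested genes were higher and 28.4% lower, so only the rises made up a larger share in the list. Klf5, a factor of proliferating epithelia, had 451, 398, 464 and 417 normalized counts at P5 and 3531, 4321, 3574 and 4502 at P12 (log2 fold change 3.20, SE 0.10, edgeR adjusted p = 1.3e-09). Barx2 (1.32, adjusted p = 3.5e-06), Cebpa (1.47, adjusted p = 3.1e-04) and Foxo1 (0.63, adjusted p = 7.4e-05) rose as well. Sox21, a factor of dental and hair epithelium, fell from 6651 ± 617 to 1080 ± 814 normalized counts (-2.63, SE 0.39, adjusted p = 1.7e-04), and its P12 libraries had 458, 743, 843 and 2276, the highest again in replicate 4. Irx1 fell from 1589 ± 207 to 665 ± 283 (-1.26, adjusted p = 8.0e-04), with 438, 462, 716 and 1045 in the P12 libraries. Foxi3 fell from 138 ± 32.5 to between 0.0 and 20.1 normalized counts (-4.44, adjusted p = 7.2e-05).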
